A study of Homo sapiens with 12 samples.

Results

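The comparison was between 3 libraries of hTERT RPE1 cells given the proteasome inhibitor MG132 (1 uM for 24 h) and 3 libraries of untreated cells of the same line, chosen by their labels from the 12 RNA-sequencing libraries of the study. RPE1 is a human retinal pigment epithelial cell line immortalised with telomerase. The other 6 libraries were 3 of cells given reversine (0.5 uM for 24 h, then washed and harvested 48 h later), an inhibitor of the mitotic checkpoint kinase MPS1, and 3 of cells given bafilomycin A1 (BafA1, 0.1 uM for 6 h), an inhibitor of the lysosomal proton pump. All 12 libraries were made from poly(A)-selected RNA. The labels name no vehicle and no harvest time for the untreated cells, and the 3 drugs differ in exposure time as well as in target. MG132 was the only agent in its group, no cells are labelled as pooled, and all 12 libraries come from the 1 line. Of the retinal pigment epithelium markers, RPE65, TYR, DCT and TTR were too low to be tested (no more than 0.64 FPKM in any of the 12 libraries). The mRNAs of these 4 genes were therefore absent or nearly so in these cells. The other 12 of the 16 listed markers were expressed highly enough to be tested. All listed markers together summed to 88 to 172 FPKM in the controls and 96.3 to 99.1 FPKM after MG132.

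MG132 is a peptide aldehyde that blocks the proteolytic sites inside the 20S core of the proteasome, the complex that degrades ubiquitin-tagged proteins. Proteins that would be degraded then build up, ubiquitin becomes tied up in conjugates, and several transcription factors are engaged. Heat shock factor 1 induces cytosolic chaperones, NFE2L1 induces proteasome subunits, NFE2L2 (NRF2) induces antioxidant enzymes, and ATF4 with CHOP drives the integrated stress response. Cyclins, CDK inhibitors and p53 are themselves proteasome substrates, and blocking the proteasome is known to halt dividing cells.

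Expression was compared as log2(FPKM + 1), FPKM being a count of fragments scaled by transcript length and by library size. A difference between group means on that scale understates the change of genes with low values. Of the 53361 rows of the table, 30712 reached 1 FPKM in 3 or more libraries and were tested with limma in 1 fit over all 12. A row is called where its Benjamini-Hochberg adjusted p was below 0.05. The labels do not say whether replicates came from separate cultures, so spread between replicates, and every p-value, may be technical. The table holds no read counts, so depth could only be estimated in relative terms. The estimate assumed that the values of 3581 rows below 1 FPKM in all 12 libraries were a floor set by depth. It was 0.74 to 1.00 of the deepest among these 6 libraries. The replicates were not equally alike in correlations across genes, over 8469 well expressed rows. The controls correlated with each other at r = 0.974 to 0.988 and MG132 2 with MG132 3 at 0.970. MG132 1 correlated with those 2 at 0.867 and 0.868. MG132 1 was also nearer to the controls (r = 0.872 to 0.886) than MG132 2 and 3 were (0.733 to 0.768). In MG132 2 and 3 the log2 values declined with the GC content of the transcript, with slopes of -0.446 and -0.466 per 10 percentage points, whereas they rose by 0.13 to 0.21 in the controls and by 0.0889 in MG132 1, each measured against the mean of all libraries. The part of RNA quality or preparation in the results was not tested. Correcting each library for GC content and length left 2179 calls. Leaving out the 4 libraries with a falling GC trend (MG132 2 and 3, reversine 1 and BafA1 3) left 2576 calls, of which 2101 were among those of the full fit.

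MG132 changed 4549 of the 30712 rows (14.8%), 2192 upward (7.14%) and 2357 downward (7.67%), and 2765 of these differed by at least 2-fold (1168 higher, 1597 lower). The 2 groups of 3 did not overlap in 10407 rows (33.9%). The median difference over all rows was 0.04. Over the 19692 rows with at least 5 FPKM in 3 libraries it was -0.211, and 40.8% of their 3673 calls were upward. Lists of genes are read below against these shares and both medians. The split between directions depended on scaling: 48.2% of calls were upward as deposited, 56.9% of 5562 after median-ratio scaling and 37.7% of 2179 after the GC and length correction. Under that correction, which covered only the 25349 rows with a GC value, the median over those rows was -0.097. Leaving out MG132 1 raised the count to 13046 of the 30712 rows, of which 9216 (70.6%) were higher and 3830 lower. Calls against control given below as made without MG132 1 belong to this larger set. Leaving out any other of these 6 libraries gave 2435 (without control 1) to 2935 (without control 2). In every alternative setting in which they were tested, 1239 rows (4.03%) were called in the same direction, 337 higher and 902 lower.

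**Figure D1:**
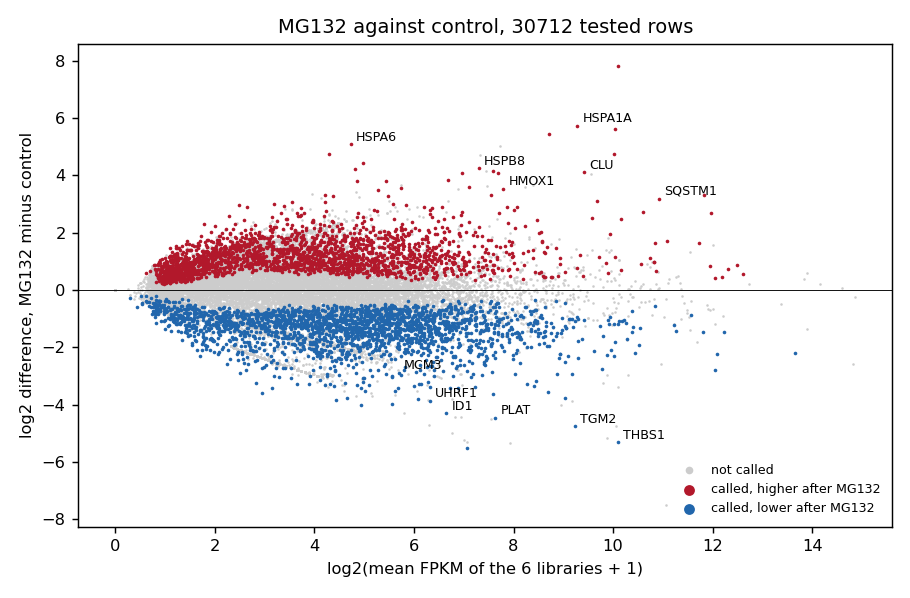
Log2 difference between MG132 and control (vertical) against the log2 mean level of the 6 libraries (horizontal) for the 30712 tested rows, with 2192 rows called higher in red, 2357 called lower in blue and the rest in grey. Heat shock genes such as HSPA1A (5.72) lie at the top and THBS1 (-5.32) and TGM2 (-4.76) near the bottom.

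Differences were ranked among called rows whose groups did not overlap, with a group mean of at least 2 FPKM and 1 row per symbol. Heat shock genes made up 4 of the 10 highest of that ranking. HSPA1A, the main stress-inducible cytosolic HSP70, stood at 16.3, 20.9 and 31.01 FPKM in the controls and 1458, 1107 and 1096 FPKM after MG132 (log2 difference 5.72, SE 0.25, adjusted p = 4.41e-06). HSPA6, an HSP70 that is nearly silent in unstressed cells, stood at 0.32, 0.71 and 0.39 FPKM in the controls and 68.8, 42.03 and 40.6 FPKM after MG132 (log2 difference 5.09, SE 0.22, adjusted p = 3.75e-06). All 3 treated libraries lay far above all 3 controls for both genes, and MG132 1 had the highest level of each. HSPA1B, a near-identical copy of HSPA1A, stood at 75.7, 72.1 and 63.95 FPKM in the controls and 2924, 1578 and 1522 FPKM after MG132 (log2 difference 4.75, SE 0.27, adjusted p = 1.7e-05). Reads of the pair may be split between them, and both lie in the MHC region, for which the table holds several alternate-haplotype rows per gene. Of the 5 rows tested for each symbol, 3 were called higher, and the log2 differences ran from 1.12 to 5.72 for HSPA1A and from 1.33 to 5.62 for HSPA1B. Here and below the row with the highest mean FPKM stands for a symbol with several rows. The small heat shock protein HSPB8, a partner of BAG3 in clearing misfolded proteins, stood at 13.6, 15.8 and 14.5 FPKM in the controls and 247, 321 and 326 FPKM after MG132 (log2 difference 4.24, SE 0.15, adjusted p = 2.29e-06). DNAJB1, the HSP40 that works with inducible HSP70, stood at 52.1, 57.2 and 52.4 FPKM in the controls and 309, 478 and 451 FPKM after MG132 (log2 difference 2.89, SE 0.19, adjusted p = 2.57e-05). None of these groups overlapped.

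Among the cytosolic and mitochondrial chaperones of the HSP70, HSP110, HSP90 and HSP60 families, 12 of 17 tested members rose and 2 fell (median difference 1.72, against 0.04 over all rows). The rising count ran from 9 (without control 1) to 15 (without MG132 1). Under the GC and length correction 8 of 14 tested were called higher and 1 lower (median 1.23). The level of the list was lower in MG132 1 than in the other 2 treated libraries, with library medians of 0.98, 2.06 and 2.21. The constitutive HSP70 HSPA8 was at 1600.3, 1498 and 1874 FPKM in the controls and 5119, 5061 and 5135 FPKM after MG132, with little spread within either group (log2 difference 1.63, SE 0.10, adjusted p = 2.11e-05). HSPH1, an HSP110 that recharges HSP70 with nucleotide, was at 29.1, 29.5 and 31.4 FPKM in the controls and 166, 401 and 454 FPKM after MG132 (log2 difference 3.33, SE 0.43, adjusted p = 0.00111). HSP90AA1, the inducible HSP90, and its constitutive partner HSP90AB1 both rose (2.73 with adjusted p = 0.000543 and 1.97 with adjusted p = 0.00487, as log2 differences). The mitochondrial chaperones were not uniform. HSPA9, the mitochondrial HSP70, rose (306, 293 and 324 FPKM in the controls and 607, 716 and 676 FPKM after MG132; log2 difference 1.11, SE 0.11, adjusted p = 0.000198). TRAP1, the mitochondrial HSP90, fell from 238, 210.1 and 264 FPKM to 90.1, 57.99 and 48.8 FPKM (log2 difference -1.88, SE 0.37, adjusted p = 0.00905). The HSP60 chaperonin HSPD1 and its lid HSPE1 were called at 1.72 (adjusted p = 0.0201) and 2.15 (adjusted p = 0.016). HSPD1 was not called without MG132 2, MG132 3, control 1, control 2 or control 3 (adjusted p = 0.0835, 0.0841, 0.0737, 0.0581 and 0.0581, within a range of 0.000154 to 0.0841 over its alternatives). HSPE1 was not called without MG132 2, MG132 3, control 1 or control 3 (adjusted p = 0.0701, 0.07, 0.0652 and 0.0581, within a range of 0.00023 to 0.0876 over its alternatives). HSPA2, a testis-enriched HSP70, was at -1.11 (adjusted p = 0.0145) and was not called without MG132 2, control 1 or control 2 (adjusted p = 0.0507, 0.0559 and 0.0631, within a range of 0.00131 to 0.131 over its alternatives). HSPA4, HSPA13 and HSPA14 did not pass the test (2.00, 0.61 and 0.31). All 3 were called higher without MG132 1, at 2.66 (adjusted p = 0.00306), 0.74 (adjusted p = 0.0174) and 0.40 (adjusted p = 0.0489).

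Of the DNAJ proteins, the HSP40 cochaperones that bring clients to HSP70, 8 of 17 rose and none fell (median 0.93). DNAJB4 stood at 6.2, 6.09 and 6.82 FPKM in the controls and 39.2, 124 and 133 FPKM after MG132 (log2 difference 3.57, SE 0.50, adjusted p = 0.00163), with MG132 1 between the controls and the other 2 treated libraries. DNAJC2, a ribosome-bound member, was at 1.99 (adjusted p = 0.00854), and DNAJA1, the general type I member, at 1.15 (adjusted p = 0.000188). DNAJA4, DNAJB5 and DNAJB12 did not pass (0.08, -0.29 and -0.13). The count of the DNAJ list ran from 5 (without MG132 2, control 1, control 2 or control 3) to 11 (without MG132 1). It was 5 of 16 tested under the GC and length correction. Among small heat shock proteins, BAG proteins, heat shock factors and HSP90 cochaperones, 10 of 22 rose and none fell (median 0.65). CRYAB (alpha B-crystallin) was at 7.62, 8.39 and 8.17 FPKM in the controls and 24.1, 30.9 and 36.1 FPKM after MG132 (log2 difference 1.77, SE 0.19, adjusted p = 0.000322). BAG3, the nucleotide exchange factor of the HSPB8 complex, was at 173, 154 and 189 FPKM in the controls and 617, 380.0 and 363 FPKM after MG132 (log2 difference 1.35, SE 0.25, adjusted p = 0.00679). STIP1 and AHSA1, which bring clients to and activate HSP90, both rose (1.27 with adjusted p = 0.000326 and 1.17 with adjusted p = 0.000176). The mRNAs of the heat shock factors did not pass the test (HSF1 -0.05, HSF2 0.57, HSF4 1.15). HSF2 and HSF4 were called higher without MG132 1 (0.67 with adjusted p = 0.0481 and 1.56 with adjusted p = 0.00529). HSPB1, the abundant small heat shock protein, did not pass either (0.26), and was at 2326, 1940.3 and 2498 FPKM in the controls and 4928, 2059 and 1910.0 FPKM after MG132, above the controls in MG132 1 alone. The count of this list ran from 6 (without MG132 2, MG132 3, control 1, control 2 or control 3) to 13 (without MG132 1). The GC and length correction left 6 of 19 called.

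The heat shock element, the binding motif of heat shock factors, was searched as GAANNTTC or TTCNNGAA on both strands in the 250 bases before each transcription start. It was present for 9 of the 17 chaperone genes of the HSP70 to HSP60 list that matched the RefSeq promoter table (52.9%), 5 of 17 DNAJ genes (29.4%) and 6 of 18 genes of the small heat shock and BAG list (33.3%), against 14% of 27305 genes. The promoters of 3 of the raised chaperone genes are printed from RefSeq on GRCh38.p14 to show the motif (capitals). They run 5′ to 3′ along the gene and end at the base before its start. HSPA1A is at chr6:31815383-31815542 on the plus strand, HSPA6 is at chr1:161524340-161524539 on the plus strand and DNAJB1 is at chr19:14518398-14518517 on the minus strand.
HSPA1A: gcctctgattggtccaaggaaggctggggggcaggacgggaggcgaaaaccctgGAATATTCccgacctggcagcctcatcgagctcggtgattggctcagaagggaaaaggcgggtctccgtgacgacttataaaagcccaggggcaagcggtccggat
HSPA6: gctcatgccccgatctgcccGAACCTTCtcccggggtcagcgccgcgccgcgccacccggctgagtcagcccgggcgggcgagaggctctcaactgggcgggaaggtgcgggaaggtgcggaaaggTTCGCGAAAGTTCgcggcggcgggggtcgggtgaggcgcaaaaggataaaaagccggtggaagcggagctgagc
DNAJB1: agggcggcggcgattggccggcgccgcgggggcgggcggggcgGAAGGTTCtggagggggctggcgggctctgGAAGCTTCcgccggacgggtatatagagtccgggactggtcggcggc
HSPA1A had 1 match, from 106 bases before the start, HSPA6 had 3 (from 180, 74 and 69 bases before, the last 2 overlapping) and DNAJB1 had 2 (from 77 and 47 bases before). Here and below, the shares cover list members whether or not their mRNA changed, so they do not compare changed with unchanged genes. Those with a match here include HSPB1, which was not called, and HSPA1L and HSPB3, which were too low to be tested. A match is a description of the letters, and binding was not measured.

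Proteasome subunit mRNAs rose in both the core and the regulator of the particle. Of the 14 subunits of the 20S core, whose barrel holds the sites MG132 blocks, 8 rose and none fell (median 0.93, against 0.04 over all rows). Of the 18 subunits of the 19S regulator, which binds, unfolds and feeds in ubiquitinated proteins, 13 rose and none fell (median 0.94). The medians by library were 0.60, 1.04 and 1.13 for the core and 0.87, 1.07 and 1.05 for the regulator in MG132 1, 2 and 3. The 20S count ran from 5 (without MG132 2, MG132 3, control 1 or control 3) to 9 (without MG132 1). The 19S count never fell below 10 with a library left out, and 4 of its subunits, but none of the core, were called in every alternative setting. Under the GC and length correction 4 of 13 core subunits tested and 5 of 18 regulator subunits were called higher (medians 0.66 and 0.81).

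PSMC6, an ATPase of the base that unfolds substrates, was at 48.8, 64.1 and 50.9 FPKM in the controls and 158, 320.4 and 309 FPKM after MG132 (log2 difference 2.19, SE 0.30, adjusted p = 0.00142). PSMC1, a second base ATPase, was at 48.5, 62.8 and 59.6 FPKM in the controls and 122, 289 and 285 FPKM after MG132 (log2 difference 1.91, SE 0.37, adjusted p = 0.008). PSMC4 was at 101, 108 and 117 FPKM and 351, 296 and 287 FPKM (log2 difference 1.51, SE 0.16, adjusted p = 0.000346), here with MG132 1 as the highest of the treated libraries. PSMD6, a lid subunit, completed the 4 (98.95, 83.5 and 95.2 FPKM in the controls and 208, 294 and 256 FPKM after MG132; log2 difference 1.43, SE 0.13, adjusted p = 0.000157), and in all 4 every treated library was above every control. Of the other lid and base subunits, PSMD14, the deubiquitinase that removes ubiquitin chains at the entry, was at 1.17 (adjusted p = 0.00202), PSMD11 at 0.89 (adjusted p = 0.00129), PSMD12 at 1.03 (adjusted p = 0.00524), PSMD13 at 1.14 (adjusted p = 0.0011) and PSMD1 at 1.12 (adjusted p = 0.00231). PSMD2, the most abundant of the regulator list, was at 804, 796 and 678 FPKM in the controls and 1259.7, 1129 and 1065 FPKM after MG132 (0.60 with adjusted p = 0.0134). It was not called without control 3 (adjusted p = 0.0581, within a range of 0.000959 to 0.541 over its alternatives). In the core, PSMB7 and PSMB5 carry 2 of the 3 proteolytic activities. PSMB7 (trypsin-like) rose from 161, 193 and 179 FPKM to 407, 696 and 636 FPKM (log2 difference 1.67, SE 0.21, adjusted p = 0.000824). PSMB5 (chymotrypsin-like, the main target of MG132) did not pass, at 0.27 (adjusted p = 0.401), and neither did PSMB6 (caspase-like) at 0.30 (adjusted p = 0.362). The largest core differences were in the alpha ring subunit PSMA1 (1.72 with adjusted p = 0.00903 for the higher of its 2 rows, the other not being called), PSMB7 and PSMA5 (1.53 with adjusted p = 0.00638). PSMA7 (-0.32), PSMD4 (-0.05) and PSMD7 (-0.52) lay on the other side of 0 without passing.

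**Figure D2:**
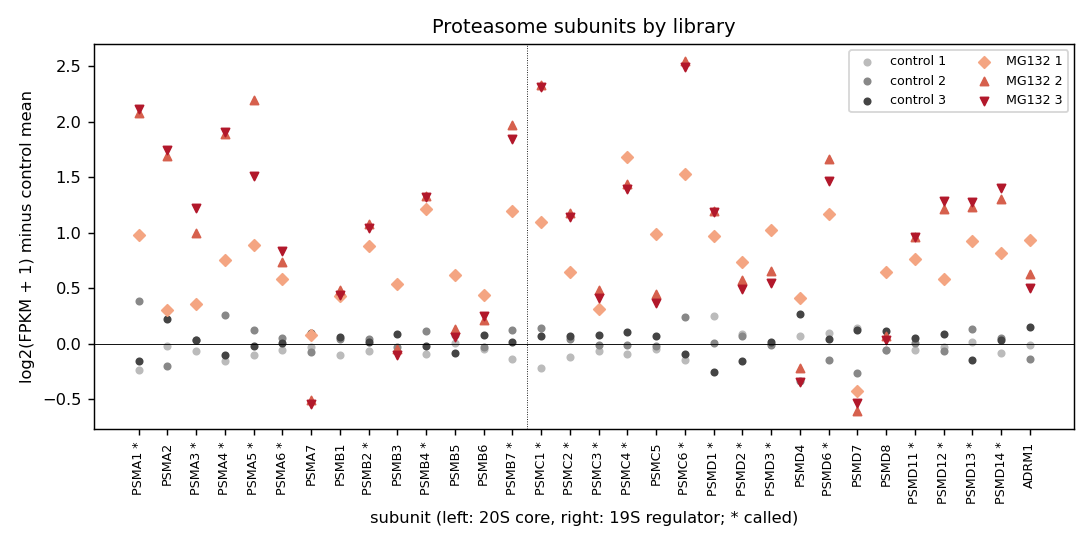
Log2(FPKM + 1) of each proteasome subunit in each of the 6 libraries, minus the mean of the 3 controls (20S core left of the dotted line, 19S regulator right; controls as grey circles, MG132 1 as diamonds, MG132 2 and 3 as triangles; asterisks mark the 8 and 13 called subunits). MG132 2 and 3 almost coincide, and MG132 1 lies lower for PSMC6 and higher for PSMC4.

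The genes around the particle did not move as a block. Of 16 assembly factors, activators and NFE2L1 pathway genes, 3 rose and 2 fell (median -0.11, which changed sign in 2 of the 16 alternatives). PSME4, the PA200 activator cap, was at 8.33, 12.5 and 8.29 FPKM in the controls and 23.8, 39.9 and 41.6 FPKM after MG132 (log2 difference 1.74, SE 0.28, adjusted p = 0.00312). NGLY1, the glycanase that activates NFE2L1, was at 11.9, 14.97 and 12.5 FPKM in controls and 24.5, 38.2 and 36.8 FPKM after MG132 (log2 difference 1.26, SE 0.20, adjusted p = 0.00355). The core assembly chaperone PSMG3 fell (52.3, 47.7 and 52.5 FPKM in the controls and 17.9, 15.1 and 15.1 FPKM after MG132; log2 difference -1.61, SE 0.31, adjusted p = 0.00869). POMP, which completes core assembly, was called at 2.10 (adjusted p = 0.0219) but not without MG132 2, MG132 3, control 1, control 2 or control 3 (adjusted p = 0.0927, 0.0923, 0.0813, 0.0545 and 0.0666, within a range of 9.38e-05 to 0.0927 over its alternatives). PSMG4, the partner of PSMG3, was called at -1.86 (adjusted p = 0.0172) but not without MG132 2, MG132 3, control 1 or control 3 (adjusted p = 0.0717, 0.0758, 0.0639 and 0.0688, within a range of 0.000283 to 0.0758 over its alternatives). The mRNA of NFE2L1 itself was at 290 ± 34.8 FPKM (SD, n = 3) in controls and 267 ± 99.5 FPKM after MG132 (adjusted p = 0.693), and that of DDI2, the protease that cleaves it, was at -0.38 (adjusted p = 0.222). The immunoproteasome subunits, which replace core subunits in immune signalling, went the other way: PSMB8 was at 32.2, 25.5 and 27.8 FPKM in the controls and 6.29, 4.48 and 4.48 FPKM after MG132 (log2 difference -2.29, SE 0.31, adjusted p = 0.00135) and PSMB10 at 39.9, 40.9 and 40.7 FPKM and 11.4, 11.3 and 11.9 FPKM (log2 difference -1.73, SE 0.17, adjusted p = 0.000231). Both were clear of the controls, and all 8 rows of PSMB8 were called lower. PSMB9 was at -1.25 (adjusted p = 0.0142), 1 of 5 called lower among its 8 rows. That call ended without control 2 (adjusted p = 0.0511, within a range of 0.000656 to 0.0681 over its alternatives). In the whole immunoproteasome and MHC class I list 4 of 11 members fell, with 2 called without control 2 and 6 without MG132 1. HLA-B alone rose (0.85 with adjusted p = 0.0143 in 1 of 2 called among its 6 rows), and was not called without MG132 2 or control 1 (adjusted p = 0.0575 and 0.0669, within a range of 0.000886 to 0.0669 over its alternatives).

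The antioxidant response element, searched as TGACNNNGC on either strand in the same windows, is bound by NFE2L2 and NFE2L1. It was present for 2 of the 10 matched 20S genes (20%) and 4 of the 17 matched 19S genes (23.5%), against 13.2% of 27305 genes. PSMD12, at chr17:67366578-67366777 on the minus strand, is printed as a raised subunit with a match (capitals, from 165 bases before the start).
PSMD12: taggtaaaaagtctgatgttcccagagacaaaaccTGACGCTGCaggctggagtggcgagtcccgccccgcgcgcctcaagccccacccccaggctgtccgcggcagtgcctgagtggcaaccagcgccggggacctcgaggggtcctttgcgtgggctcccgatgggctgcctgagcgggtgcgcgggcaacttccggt

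Ubiquitin mRNA rose at the gene UBB. This polyubiquitin gene was at 994, 1094 and 960.0 FPKM in the controls and 3042, 3638 and 3308 FPKM after MG132 (log2 difference 1.71, SE 0.14, adjusted p = 8.34e-05), with every treated library above every control. Ubiquitin repeats are near-identical, so reads may be shared between ubiquitin genes. The ubiquitin fusion gene RPS27A did not pass (0.75) but was called without MG132 1 (1.26 with adjusted p = 0.011). Among the 31 tested ubiquitin genes, E1 and E2 enzymes 8 rose and 3 fell (median 0.44), and the upward count ran from 2 (without MG132 2, MG132 3 or control 1) to 16 (without MG132 1). After the GC and length correction 1 of 31 was called higher. UBE2H rose (49.7, 44.5 and 54.1 FPKM in the controls and 126, 103 and 91.5 FPKM after MG132; log2 difference 1.09, SE 0.16, adjusted p = 0.0018). The 3 that fell are E2 enzymes of the cell cycle and of DNA repair. UBE2S and UBE2C, the pair that builds chains for the anaphase promoting complex, were at -1.97 (adjusted p = 0.000427) and -1.36 (adjusted p = 0.00584), and UBE2T, of the Fanconi pathway, was at 39.9, 45.9 and 46.9 FPKM in controls and 7.49, 11.6 and 14.7 FPKM after MG132 (-1.92 with adjusted p = 0.000904).

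Of 17 deubiquitinases and shuttle factors 10 rose and 2 fell (median 0.80), with none called lower when any library other than MG132 1 was left out. The GC and length correction left 6 of 17 called higher and none lower. ZFAND2A (AIRAP), an arsenite-inducible partner of the proteasome, was at 29.9, 23.8 and 32.5 FPKM in the controls and 149.5, 177 and 169 FPKM after MG132 (log2 difference 2.49, SE 0.18, adjusted p = 4.71e-05). UCHL1, an abundant deubiquitinase, was at 863, 896 and 899 FPKM and 2996, 2638 and 2708 FPKM, with little spread within either group (log2 difference 1.65, SE 0.10, adjusted p = 2.31e-05). UFD1L, a cofactor of the segregase VCP, and UBQLN1, a shuttle that carries conjugates to the proteasome, rose (1.28 with adjusted p = 0.00241 and 1.51 with adjusted p = 0.00312). VCP was at 0.45 and did not pass (adjusted p = 0.247).

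Genes of the endoplasmic reticulum (ER) rose with those of the cytosol. Of 23 ER chaperones and unfolded protein sensors 15 rose and none fell (median 1.10). HSPA5 (BiP), the main HSP70 of the ER lumen, was at 169, 173 and 164 FPKM in the controls and 1148, 1604 and 1679.5 FPKM after MG132 (log2 difference 3.10, SE 0.15, adjusted p = 8.16e-06). HERPUD1, an ER membrane protein of the degradation complex, was at 32.4, 32.5 and 29.5 FPKM and 156, 197 and 208 FPKM (log2 difference 2.53, SE 0.14, adjusted p = 1.26e-05), and both genes were far above every control. DNAJB9, a BiP cochaperone, was at 1.98 (adjusted p = 8.56e-05) and HYOU1, the ER HSP110, at 1.10 (adjusted p = 0.000489). The ER list counted 8 (without MG132 2 or MG132 3) to 15 (without MG132 1) with a library left out. HSP90B1, the ER HSP90, and CALR, the calreticulin lectin, chosen after their values were seen, were at 2.46 (adjusted p = 0.00749) and 0.94 (adjusted p = 0.00142). Among genes of ER-associated degradation 4 of 15 rose and none fell (median 0.41), and the count ran from 2 (without MG132 2, MG132 3, control 1 or control 2) to 6 (without MG132 1). None of the 15 was called under the GC and length correction (median 0.33). SEL1L, the scaffold of the HRD1 ligase, was at 19.1, 18.04 and 22.01 FPKM in the controls and 51.5, 55.2 and 42.97 FPKM after MG132 (log2 difference 1.29, SE 0.23, adjusted p = 0.00567). UBE4B, a chain-extending ligase, was at 0.94 (adjusted p = 0.00441).

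The ER stress element (CCAAT, 9 bases, then CCACG, on either strand) was found before the start of 8 of the 22 matched ER genes (36.4%), against 0.0916% of 27305 genes. HSPA5 is shown, at chr9:125241344-125241463 on the minus strand, with both parts of its match in capitals (first base 66 before the start).
HSPA5: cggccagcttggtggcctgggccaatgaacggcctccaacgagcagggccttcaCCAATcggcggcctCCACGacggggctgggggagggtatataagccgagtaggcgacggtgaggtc

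Regulators of the ATF and CHOP branch rose. Of 17 stress regulators of this branch 11 rose and 2 fell (median 1.06), at similar levels in the 3 treated libraries (medians 1.22, 1.09 and 1.02). DDIT3, which encodes the transcription factor CHOP, was at 20.3, 23.9 and 21.4 FPKM in the controls and 319, 422 and 421 FPKM after MG132 (log2 difference 4.08, SE 0.14, adjusted p = 2.29e-06). ATF4, whose protein level is mostly controlled through translation, was at 208, 225 and 204 FPKM and 503, 638 and 669 FPKM (log2 difference 1.49, SE 0.13, adjusted p = 0.000141). ATF3, a stress-induced partner, was at 1.95, 2.42 and 2.27 FPKM in the controls and 10.7, 14.9 and 16.2 FPKM after MG132 (log2 difference 2.20, SE 0.23, adjusted p = 0.000342). None of the 3 overlapped between groups. SESN2, an inhibitor of mTORC1, was at 2.54 (adjusted p = 2.57e-05), TRIB3, a pseudokinase induced by CHOP, at 1.89 (adjusted p = 0.00327), and PPP1R15A (GADD34), which restores translation by dephosphorylating eIF2, at 1.83 (adjusted p = 4.3e-05). CEBPB (1.16 with adjusted p = 0.00227) and DDIT4 (1.06 with adjusted p = 0.00252), a second mTORC1 inhibitor, also rose. GDF15, a secreted stress hormone, was at 0.57, 0.33 and 0.36 FPKM in the controls and 6.15, 4.88 and 5.8 FPKM after MG132 (2.22 with adjusted p = 0.000446), with all 3 controls below 1 FPKM. STC2, a secreted glycoprotein of this branch, fell from 1208, 1029.8 and 1342 FPKM to 684, 436 and 415 FPKM (-1.25 with adjusted p = 0.00707). VLDLR was at -0.80 (adjusted p = 0.0154) and not called without control 1 (adjusted p = 0.074, within a range of 0.00108 to 0.109 over its alternatives). CHAC1, ATF5, JDP2 and PPP1R15B did not pass (0.32, -0.16, 0.09 and 0.66). PPP1R15B was called without MG132 1 (1.03 with adjusted p = 0.0436). The amino acid response element, searched as TGATGNAA on either strand, lay before the start of 5 of the 16 matched genes of this list (31.2%, ATF3 among them), against 3.89% of 27305 genes.

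Most of the amino acid genes tested, many of them known ATF4 targets, did not rise with these regulators. Of 13 amino acid synthesis and one-carbon enzymes 7 fell and 1, CTH, rose (median -1.24). SHMT1, the cytosolic serine hydroxymethyltransferase, was at 36.5, 27.6 and 37.7 FPKM in the controls and 7.75, 9.61 and 6.85 FPKM after MG132 (log2 difference -1.94, SE 0.19, adjusted p = 0.000232). MTHFD1 and MTHFD2, the cytosolic and mitochondrial folate dehydrogenases, were at -1.53 (adjusted p = 0.000425) and -1.29 (adjusted p = 0.000476), and ALDH18A1, the first enzyme of proline synthesis, at -1.32 (adjusted p = 0.000744). PHGDH and PSAT1 of serine synthesis and PYCR1 of proline synthesis, chosen after their values were seen, also fell (-1.34 with adjusted p = 0.00124, -1.24 with adjusted p = 0.00743 and -1.45 with adjusted p = 0.00396). ASNS, asparagine synthetase, did not pass (45 ± 5.38 FPKM in controls and 40.3 ± 4.77 FPKM after MG132, SD, n = 3; adjusted p = 0.458). CTH, of the transsulfuration route to cysteine and likewise chosen afterwards, was at 3.1, 3.31 and 2.04 FPKM in the controls and 9.58, 12.7 and 14.1 FPKM after MG132 (1.78 with adjusted p = 0.00285). The amino acid response element lay before 2 of the 10 matched genes of this list (20%), ASNS and MTHFD1L. Each of the 7 that fell was called with any 1 of the 6 libraries left out. Of 10 amino acid transporters 1 rose and 5 fell (median -0.61). The 1 that rose was SLC7A11, the cystine importer, at 2.27, 2.56 and 2.41 FPKM in the controls and 9.37, 28.5 and 28.1 FPKM after MG132 (log2 difference 2.60, SE 0.48, adjusted p = 0.00664). The transporter count for falling ran from 1 (without MG132 2, MG132 3, control 1 or control 3) to 5 (without MG132 1). SLC43A1, a carrier of large neutral amino acids, fell (-1.01 with adjusted p = 0.0129). Among aminoacyl-tRNA synthetases 4 of 20 rose and 1 fell (median 0.47), running from 2 (without MG132 2 or control 3) to 12 (without MG132 1). IARS rose (1.22 with adjusted p = 0.00191), WARS rose (0.71 with adjusted p = 0.00375) and VARS fell (-1.58 with adjusted p = 0.00602, with 6 of its 7 rows called lower).

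Targets of NRF2 rose in the main. Of 24 tested antioxidant genes 16 rose and 1, TKT, fell (median 0.97), with library medians of 1.01, 0.86 and 0.77. The GC and length correction left 10 of 24 higher and none lower. HMOX1, the heme oxygenase, was at 28.6, 35.8 and 37.5 FPKM in the controls and 490.0, 365 and 368 FPKM after MG132 (log2 difference 3.54, SE 0.19, adjusted p = 1.07e-05). OSGIN1, an oxidative stress-induced growth inhibitor, was at 8.5, 10.2 and 10.03 FPKM and 102, 73.4 and 75.4 FPKM (log2 difference 2.99, SE 0.23, adjusted p = 5.73e-05). FTL, the ferritin light chain, was at 558, 707 and 638 FPKM in the controls and 4175, 7870.5 and 7724 FPKM after MG132 (log2 difference 3.32, SE 0.30, adjusted p = 0.000151), 1 of the most abundant of the raised mRNAs. MAFG and ME1, a small Maf partner of NRF2 and a NADPH-forming malic enzyme, were at 2.13 (adjusted p = 2.2e-05) and 1.93 (adjusted p = 0.000168). GCLM, the modifier subunit of the first enzyme of glutathione synthesis, was at 15.1, 17.7 and 12.1 FPKM in the controls and 43.6, 56.9 and 51.7 FPKM after MG132 (1.70 with adjusted p = 0.000557). AKR1B10 and AKR1C1, aldo-keto reductases that were below 1 FPKM in every control, reached 5.88, 9.57 and 11.8 FPKM and 4.74, 7.01 and 6.43 FPKM (2.43 with adjusted p = 0.000259 and 1.98 with adjusted p = 4.81e-05). NQO1, a widely used NRF2 reporter, did not pass, with 223, 252 and 199 FPKM in the controls and 115, 194 and 183 FPKM after MG132 (-0.48, adjusted p = 0.159), nor did NFE2L2 itself (-0.06) or KEAP1, its inhibitor (-1.23). KEAP1 was called lower without MG132 1 (-1.58 with adjusted p = 0.00855). TKT was at -1.10 (adjusted p = 0.023) and was not called without MG132 2, MG132 3, control 1 or control 3 (adjusted p = 0.0826, 0.0928, 0.063 and 0.0822, within a range of 0.000298 to 0.0928 over its alternatives). The antioxidant response element lay before the start of 6 of the 19 matched genes of this list (31.6%), against 13.2% of 27305. The TRiC chaperonin, which folds actin and tubulin, was little moved (1 of 8 higher, 1 lower, median 0.05): TCP1 was at 0.44 (adjusted p = 0.024) and CCT5 at -0.35 (adjusted p = 0.0468), and neither was called without MG132 2 (adjusted p = 0.0864 and 0.12), MG132 3, control 1 or control 2. Of 10 metallothionein list genes only MT1E was called, downward (1873, 1941 and 1829.6 FPKM in the controls and 435, 768 and 568 FPKM after MG132; -1.71 with adjusted p = 0.00208). These genes are near-identical and their split by the counting is uncertain.

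**Figure D3:**
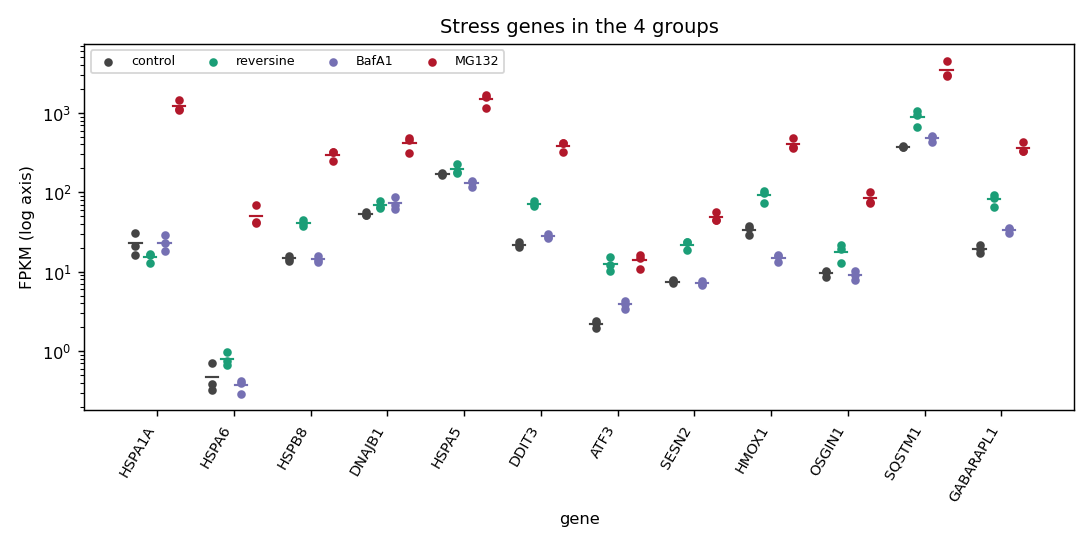
FPKM on a log axis of 12 stress genes in each of the 3 libraries of control, reversine, BafA1 and MG132 (points; short lines are group means). For all genes but ATF3 the MG132 libraries lie above the other 9, and for ATF3 they overlap with the reversine libraries.

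Several mRNAs of autophagy cargo receptors and of ATG8 proteins rose. SQSTM1 (p62), which binds ubiquitinated cargo, was at 383, 372 and 373 FPKM in the controls and 4551, 3026 and 2938 FPKM after MG132 (log2 difference 3.19, SE 0.20, adjusted p = 2.15e-05). GABARAPL1, an ATG8 protein that anchors receptors to the growing membrane, was at 17.4, 19.2 and 21.9 FPKM and 432, 329.6 and 331 FPKM (log2 difference 4.15, SE 0.17, adjusted p = 3.21e-06). MAP1LC3B (LC3B) was at 39.0, 48.3 and 35.5 FPKM in the controls and 165, 220 and 224 FPKM after MG132 (log2 difference 2.28, SE 0.16, adjusted p = 3.78e-05). All 3 groups of treated libraries were clear of the controls. Of 10 receptors 6 rose and none fell (median 0.70), and of 5 tested LC3 and GABARAP genes 4 rose (median 2.28). Under the GC and length correction 2 of 10 receptors and 2 of 5 LC3 and GABARAP genes were called higher. The receptors TAX1BP1, OPTN, CALCOCO2 and BNIP3L were at 1.55 (adjusted p = 0.000385), 0.76 (adjusted p = 0.0022), 1.04 (adjusted p = 0.00934) and 0.65 (adjusted p = 0.00579). TOLLIP, BNIP3, NCOA4 and FUNDC1 did not pass, although TOLLIP was called lower without MG132 1 (-1.72 with adjusted p = 0.0496). GABARAPL2 rose (1.14 with adjusted p = 0.00246) and GABARAP was just outside the threshold (1.13, adjusted p = 0.0503) and was called without MG132 1 (1.49 with adjusted p = 0.00315). MAP1LC3B2, a near-copy of MAP1LC3B whose reads may be shared with it, was at 3.08 (adjusted p = 0.0306) and not called without MG132 2, MG132 3, control 1, control 2 or control 3 (adjusted p = 0.116, 0.116, 0.0948, 0.0707 and 0.0822, within a range of 0.000612 to 0.209 over its alternatives).

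Further along the pathway the responses were fewer. Of 28 genes of the autophagy machinery 8 rose and none fell (median 0.50), and the count ran from 5 (without MG132 2, MG132 3, control 1, control 2 or control 3) to 13 (without MG132 1). WIPI1, a lipid-binding protein of the early autophagosome, was at 10.8, 10.1 and 10.01 FPKM in the controls and 48.4, 53.03 and 51.4 FPKM after MG132 (log2 difference 2.20, SE 0.15, adjusted p = 3.7e-05). RB1CC1 (FIP200), of the initiating kinase complex, was at 1.83 (adjusted p = 0.00361), and ATG14, of the PI3-kinase complex, at 1.99 (adjusted p = 0.00427). Of 39 lysosomal genes 15 rose and 1 fell (median 0.32), and the library medians were 0.58, 0.19 and 0.10, highest in MG132 1. GLA, the alpha-galactosidase, was at 15.04, 16.1 and 17.6 FPKM in the controls and 87.8, 150.2 and 150.5 FPKM after MG132 (log2 difference 2.88, SE 0.28, adjusted p = 0.000217). NPC1, the lysosomal cholesterol exporter, was at 26.3, 24.2 and 24.5 FPKM and 129, 103 and 97.4 FPKM (log2 difference 2.08, SE 0.16, adjusted p = 7.2e-05). HEXA and ASAH1, lipid hydrolases, were at 1.36 (adjusted p = 8.9e-05) and 1.42 (adjusted p = 0.000156). The rising lysosomal count ran from 10 (without MG132 2) to 17 (without MG132 1). The GC and length correction left 8 of 39 lysosomal genes called higher.

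DNA replication genes fell together. Of 27 tested, 20 fell and none rose (median -1.45), against 7.67% of all rows called lower, and the library medians were close to each other (-1.62, -1.53 and -1.47). MCM3, a subunit of the replicative helicase, was at 89.7, 90.7 and 90.03 FPKM in the controls and 11.4, 10.3 and 11.9 FPKM after MG132 (log2 difference -2.90, SE 0.11, adjusted p = 2.29e-06). MCM2 was at 94.9, 89.2 and 95.6 FPKM and 11.8, 10.6 and 10.5 FPKM (log2 difference -2.98, SE 0.16, adjusted p = 1.41e-05). MCM4 was at 237, 208 and 255 FPKM and 40.5, 42.2 and 39.1 FPKM (log2 difference -2.49, SE 0.13, adjusted p = 1.14e-05). RRM2, the ribonucleotide reductase subunit that is made in S phase, was at 351, 324 and 312 FPKM in the controls and 52.97, 69.2 and 67.8 FPKM after MG132 (log2 difference -2.37, SE 0.12, adjusted p = 1.05e-05). No treated library came near the controls for any of the 4. With a library left out the count was 16 (without control 1, control 2 or control 3) to 21 (without MG132 1), and 14.8% of all rows were called in either direction. MCM6, TYMS (thymidylate synthase) and PCNA (the sliding clamp), chosen after their values were seen, were at -3.01 (adjusted p = 3.95e-05), -3.64 (adjusted p = 0.000249) and -2.28 (adjusted p = 0.00113). UHRF1, which maintains DNA methylation at the fork, and ASF1B, a histone chaperone of S phase, were among the 10 lowest rows of the ranking. UHRF1 was at 156, 128 and 162 FPKM in the controls and 12.2, 8.11 and 7.94 FPKM after MG132 (log2 difference -3.86, SE 0.25, adjusted p = 2.56e-05). ASF1B was at 139, 111 and 125 FPKM and 11.3, 8.1 and 5.62 FPKM (log2 difference -3.79, SE 0.35, adjusted p = 0.000156). RRM1, ORC6, GINS3 and POLE2 were not called (-0.03, 0.09, 0.42 and 0.07).

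Mitotic genes divided into those that fell and those that did not. Of 30 tested, 14 fell and none rose (median -0.57), and the list differed by library, with medians of -1.36, -0.29 and -0.25. The falling genes did so in all 3 treated libraries. CDCA3, a trigger of mitotic entry, was at 154, 136 and 157 FPKM in the controls and 17.7, 18.2 and 17.6 FPKM after MG132 (log2 difference -2.99, SE 0.15, adjusted p = 8.69e-06). PLK1, the mitotic kinase, was at 245, 213 and 245 FPKM and 46.6, 26.4 and 26.1 FPKM (log2 difference -2.84, SE 0.26, adjusted p = 0.000172). PRC1, a midzone microtubule bundler, was at 255, 229 and 301 FPKM and 64.2, 62.1 and 65.2 FPKM (log2 difference -2.01, SE 0.12, adjusted p = 2.11e-05). FOXM1, a transcription factor of G2 genes, was at 120.1, 129 and 125 FPKM in the controls and 44.6, 45.02 and 43.7 FPKM after MG132 (log2 difference -1.47, SE 0.12, adjusted p = 0.000104). CDK1 and TOP2A, named after their values were seen, were not called: the kinase CDK1 was at 18.3, 20.4 and 23.2 FPKM in the controls and 7.79, 36.5 and 26.8 FPKM after MG132 (-0.04) and TOP2A, a topoisomerase, at 18.9, 23.8 and 19.7 FPKM and 7.44, 27.5 and 34.5 FPKM (-0.09). MG132 1 was below every control for both, and MG132 2 and 3 were above every control. The part of the GC trend of MG132 2 and 3 in this difference between libraries was not tested. Of 15 replication-dependent histone genes, most of whose mRNAs lack a poly(A) tail, 1, HIST1H2BK, was called, downward (median -0.16; -0.83 with adjusted p = 0.0318, not called without MG132 2, MG132 3, control 2 or control 3 with adjusted p = 0.115, 0.109, 0.082 and 0.0822, within a range of 0.00809 to 0.302 over its alternatives).

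The E2F motif of S-phase genes, searched as TTTGGCGC or TTTCGCGC, was found for 5 of the 25 matched replication genes (20%), against 1.2% of 27305 genes, and the CHR element of G2 genes (TTTGAA) for 15 of the 26 matched mitotic genes (57.7%), against 16.1%, both on either strand. MCM6 at chr2:135876444-135876643 on the minus strand and PLK1 at chr16:23678809-23678888 on the plus strand are shown with the matches in capitals. In MCM6 the 4 matches form 2 overlapping pairs (from 152, 148, 90 and 86 bases before the start), and in PLK1 the match begins 29 bases before it.
MCM6: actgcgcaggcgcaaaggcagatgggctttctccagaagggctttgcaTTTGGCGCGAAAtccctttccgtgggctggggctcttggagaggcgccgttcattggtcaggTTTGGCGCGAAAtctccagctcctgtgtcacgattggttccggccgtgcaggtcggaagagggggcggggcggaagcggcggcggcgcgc
PLK1: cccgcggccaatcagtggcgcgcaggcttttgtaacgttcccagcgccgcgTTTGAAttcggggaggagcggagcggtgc

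**Figure D4:**
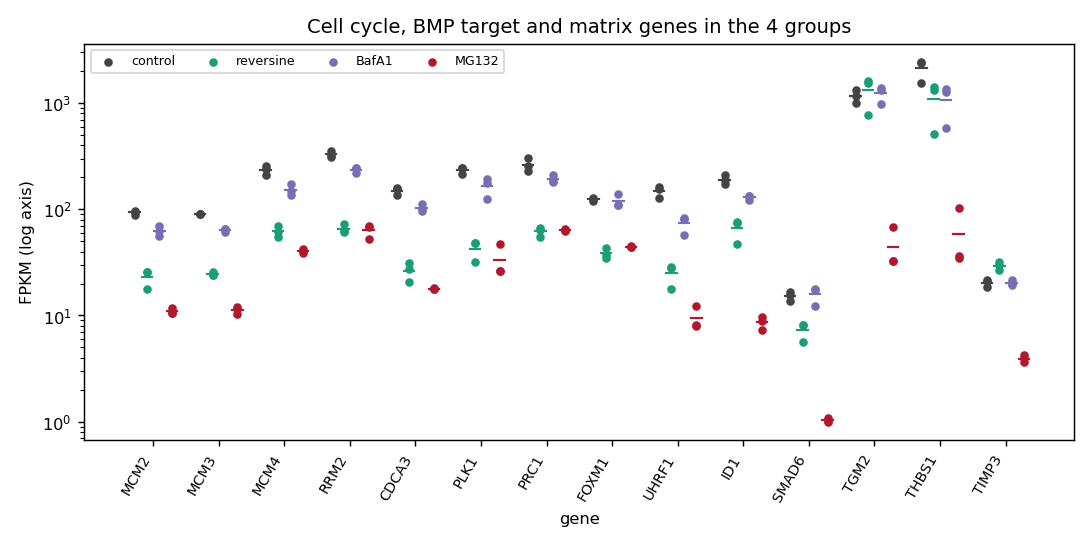
FPKM on a log axis of 14 genes in each of the 3 libraries of control, reversine, BafA1 and MG132 (points; short lines are group means). For all genes but RRM2, PLK1, PRC1 and FOXM1 the 3 MG132 libraries are the lowest of the 12. For RRM2, PLK1 and PRC1 they overlap with the reversine libraries, and for FOXM1 they lie just above them.

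Among cyclins and CDK inhibitors 2 of 15 rose and 6 fell (median -0.70), the rising count dropped to 0 without control 1 or control 2, and the falling count ran from 3 (without MG132 3, control 1 or control 2) to 7 (without MG132 1). CDKN1A (p21), the p53-induced inhibitor, was at 215, 189 and 253 FPKM in the controls and 762, 489 and 434 FPKM after MG132 (log2 difference 1.32, SE 0.29, adjusted p = 0.0145), with all 3 treated libraries above the controls. It was not called without control 1 or control 2 (adjusted p = 0.0542 and 0.0564, within a range of 0.000166 to 0.0564 over its alternatives). CDKN2A, the p16 and ARF locus, was at 855, 667 and 947 FPKM and 196, 81.3 and 76.5 FPKM (log2 difference -2.92, SE 0.52, adjusted p = 0.00587). The INK4 inhibitors CDKN2C and CDKN2D were at -1.96 (adjusted p = 0.00388) and -1.80 (adjusted p = 0.00183). CCND1 (cyclin D1) was at 1323, 997 and 1346 FPKM in the controls and 661, 182 and 174 FPKM after MG132 (-2.13 with adjusted p = 0.0349). It was not called without MG132 2, MG132 3, control 1, control 2 or control 3 (adjusted p = 0.134, 0.135, 0.0983, 0.0707 and 0.0822, within a range of 0.000226 to 0.135 over its alternatives). In the p53 target list 7 of 27 rose and 2 fell (median 0.65), and the count that rose ran from 5 (without MG132 2, control 1 or control 2) to 12 (without MG132 1). GADD45A, a growth arrest gene also induced by ATF4, was at 78.6, 84.8 and 73.8 FPKM in the controls and 372, 233 and 228 FPKM after MG132 (log2 difference 1.76, SE 0.27, adjusted p = 0.00244), and the BH3-only gene PMAIP1 (NOXA) was at 9.85, 9.22 and 8.51 FPKM and 22.4, 45.1 and 44.98 FPKM (log2 difference 1.85, SE 0.31, adjusted p = 0.00389). TP53I3, a p53-induced oxidoreductase, fell (44.8, 42.3 and 41.3 FPKM in the controls and 16.2, 17.8 and 15.9 FPKM after MG132; -1.31 with adjusted p = 0.000542). Of the BCL2 family 3 of 14 rose and 5 fell (median -0.33). HRK, a BH3-only gene, rose from 0.56, 0.84 and 0.75 FPKM to 5.21, 6.66 and 7.88 FPKM (2.13 with adjusted p = 0.000131), while the anti-apoptotic BCL2 and the BH3-only gene BMF fell (-1.38 with adjusted p = 0.000915 and -1.47 with adjusted p = 0.00122). The falling count ran from 2 (without MG132 2, MG132 3 or control 1) to 7 (without MG132 1).

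Secretory and immediate early genes were mixed. Of 17 tested NF-kB and secretory genes 7 rose and 2 fell (median 0.57), with none called lower without MG132 2, MG132 3, control 1 or control 3. CXCL3, a neutrophil chemokine, was at 1.07, 1.05 and 0.89 FPKM in the controls and 14.5, 14.9 and 15.96 FPKM after MG132 (log2 difference 3.01, SE 0.20, adjusted p = 3.1e-05). CXCL2 and NFKB2 were at 1.90 (adjusted p = 7.08e-05) and 1.51 (adjusted p = 0.0022). NFKBIA, the feedback inhibitor of NF-kB, did not pass (0.12; named after its value was seen). CCL26, an eotaxin outside that list, was among the 10 highest rows, at 1.51, 2.25 and 1.58 FPKM in the controls and 54.0, 65.8 and 56.7 FPKM after MG132 (log2 difference 4.43, SE 0.21, adjusted p = 5.57e-06). Of 20 interferon genes 2 rose and 4 fell (median 0.01, which changed sign in 7 alternatives). STAT2, which transmits the interferon signal, and IFI44 rose (2.16 with adjusted p = 3.28e-05 and 2.39 with adjusted p = 0.000573). OAS3, an RNA sensor, and IFITM3, which blocks viral entry, fell (-2.29 with adjusted p = 7.98e-05 and -1.50 with adjusted p = 0.00399). Of 16 immediate early genes 4 rose and 5 fell (median 0.06, which changed sign in 2 alternatives), and the falling count ran from 1 (without MG132 2, MG132 3 or control 3) to 5 (without MG132 1). DUSP1, a phosphatase of stress kinases, was at 31.98, 30.9 and 33.2 FPKM in the controls and 212, 226 and 209.7 FPKM after MG132 (log2 difference 2.72, SE 0.10, adjusted p = 2.29e-06), with narrow spread in both groups. FOSL1 (FRA1) fell from 736, 684 and 765 FPKM to 342, 227 and 221 FPKM (log2 difference -1.49, SE 0.19, adjusted p = 0.000879).

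Feedback genes of the BMP and TGF-beta pathways fell. Of 11 tested 6 fell and 1 rose (median -0.62), with none called higher when any library other than MG132 1 was left out. ID1, an inhibitor of differentiation and direct BMP target, was at 189, 172 and 209.7 FPKM in the controls and 9.59, 8.94 and 7.34 FPKM after MG132 (log2 difference -4.31, SE 0.19, adjusted p = 4.41e-06). SMAD6, the inhibitory SMAD of BMP signalling, was at 13.7, 15.5 and 16.6 FPKM and 1.08, 1.01 and 0.99 FPKM (log2 difference -3.00, SE 0.23, adjusted p = 5.62e-05). PMEPA1, a TGF-beta target, was at 73.4, 59.9 and 91.9 FPKM in the controls and 15.8, 6.92 and 6.32 FPKM after MG132 (log2 difference -2.92, SE 0.44, adjusted p = 0.00249). ID3, a further BMP target, was at -1.20 (adjusted p = 0.000107). Every treated library was below every control for all 4.

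Of 27 tested extracellular matrix genes 10 fell and 1 rose (median -0.32), with none called higher when any library other than MG132 1 was left out. THBS1 (thrombospondin 1), an adhesive glycoprotein that activates latent TGF-beta, was at 2391, 1542 and 2436 FPKM in the controls and 103, 35.0 and 36.5 FPKM after MG132 (log2 difference -5.32, SE 0.54, adjusted p = 0.000268). SPARC, a collagen-binding protein, was at 1589, 1414 and 1805 FPKM and 383, 316 and 421 FPKM (log2 difference -2.10, SE 0.16, adjusted p = 6.84e-05). TIMP3, an inhibitor of matrix proteases, was at 21.5, 18.7 and 21.01 FPKM and 3.62, 3.96 and 4.21 FPKM (log2 difference -2.12, SE 0.15, adjusted p = 3.84e-05). LOXL2, a collagen cross-linking oxidase, was at -2.55 (adjusted p = 0.000912). TGM2 (transglutaminase 2), a cross-linking enzyme outside the list, was at 1157, 993 and 1332 FPKM in the controls and 68.1, 32.4 and 32.3 FPKM after MG132 (log2 difference -4.76, SE 0.35, adjusted p = 4.85e-05). PLAT, the tissue plasminogen activator, was at 401, 324 and 409 FPKM and 23.8, 12.8 and 13.6 FPKM (log2 difference -4.46, SE 0.31, adjusted p = 3.78e-05). Both were among the 10 lowest rows, and so was THBS1. PLAU, the urokinase activator, was at 264, 228 and 323 FPKM in the controls and 24.7, 24.3 and 25.8 FPKM after MG132 (log2 difference -3.38, SE 0.16, adjusted p = 5.57e-06). Among actin and YAP/TAZ target genes 4 of 17 rose and 5 fell (median -0.32, which changed sign in 1 alternative), the rising count running from 1 (without MG132 2 or control 3) to 4 (without MG132 1) and the falling from 3 (without MG132 2 or MG132 3) to 6 (without MG132 1). AXL, a receptor kinase, and VCL (vinculin) fell (-1.22 with adjusted p = 0.000187 and -1.09 with adjusted p = 0.00319) and MYL9, a myosin light chain, rose (0.94 with adjusted p = 0.000198). Of 11 mesenchymal and simple epithelial markers 4 fell, the keratins KRT8, KRT18 and KRT7 (-1.29 with adjusted p = 0.00427, -1.14 with adjusted p = 0.000172 and -1.66 with adjusted p = 0.00363) and TWIST1 (-1.43 with adjusted p = 0.00296).

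Metabolic and ribosome lists moved little or in part. Of 25 ribosome biogenesis genes 9 fell and none rose (median -0.48), the count running from 6 (without control 3) to 12 (without MG132 1). FBL (fibrillarin), the methylase of ribosomal RNA, was at 239.6, 232 and 264 FPKM in the controls and 79.8, 71.4 and 65.97 FPKM after MG132 (log2 difference -1.75, SE 0.23, adjusted p = 0.00122), and DKC1 (dyskerin) and UBTF, an RNA polymerase I factor, were at -1.23 (adjusted p = 0.000208) and -1.31 (adjusted p = 0.00114). Cytosolic ribosomal protein genes were largely uncalled (3 of 53 lower, none higher, median 0.17, which changed sign in 3 alternatives). RPS2, RPSA and RPS15 were at -1.46 (adjusted p = 0.0318), -0.55 (adjusted p = 0.0368) and -1.22 (adjusted p = 0.0492), and none of the 3 was called when any library other than MG132 1 was left out (adjusted p from 0.0707 to 0.17). Without MG132 1, 21 were called higher and 11 lower, in a setting that called 9216 of all 30712 rows higher and 3830 lower. Of 13 mitochondrially encoded genes 8 rose (median 0.67), with 3 called without MG132 2 and 10 without MG132 1. None was called under the GC and length correction, where the median was 0.06. MT-ND1 was at 1162, 1249 and 1230.1 FPKM in the controls and 2167, 2613 and 2372 FPKM after MG132 (0.97 with adjusted p = 0.00133). All rows with a symbol beginning MT-, a wider set than these 13 genes, made up 2.92% to 5.61% of the summed FPKM in the controls. Their share was 4.28%, 8.19% and 20.4% in MG132 1, 2 and 3, and the part of this share in the results was not tested. Nuclear respiratory chain genes were called in both directions (2 higher and 6 lower of 36, median 0.20, which changed sign in 4 alternatives), and none was called in either direction without MG132 2, MG132 3 or control 3. In the cholesterol list 7 of 24 fell and 3 rose (median -0.20, which changed sign in 1 alternative), and 1 was called higher when any library other than MG132 1 was left out. EBP, a sterol isomerase, and ACAT2 fell (-2.13 with adjusted p = 0.000425 and -1.20 with adjusted p = 0.000583), and STARD4, a cholesterol carrier, rose (1.46 with adjusted p = 0.00215). In the HIF and glycolysis list 6 of 23 fell and 3 rose (median -0.22), the falling count running from 3 (without MG132 2, MG132 3, control 1 or control 3) to 7 (without MG132 1). LDHA, lactate dehydrogenase, was at 990.0, 1155 and 885 FPKM in the controls and 258, 335 and 332 FPKM after MG132 (-1.71 with adjusted p = 0.000311), and NDRG1 and BHLHE40, hypoxia-induced genes, rose (2.04 with adjusted p = 0.00046 and 1.82 with adjusted p = 3.78e-05).

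**Figure D5:**
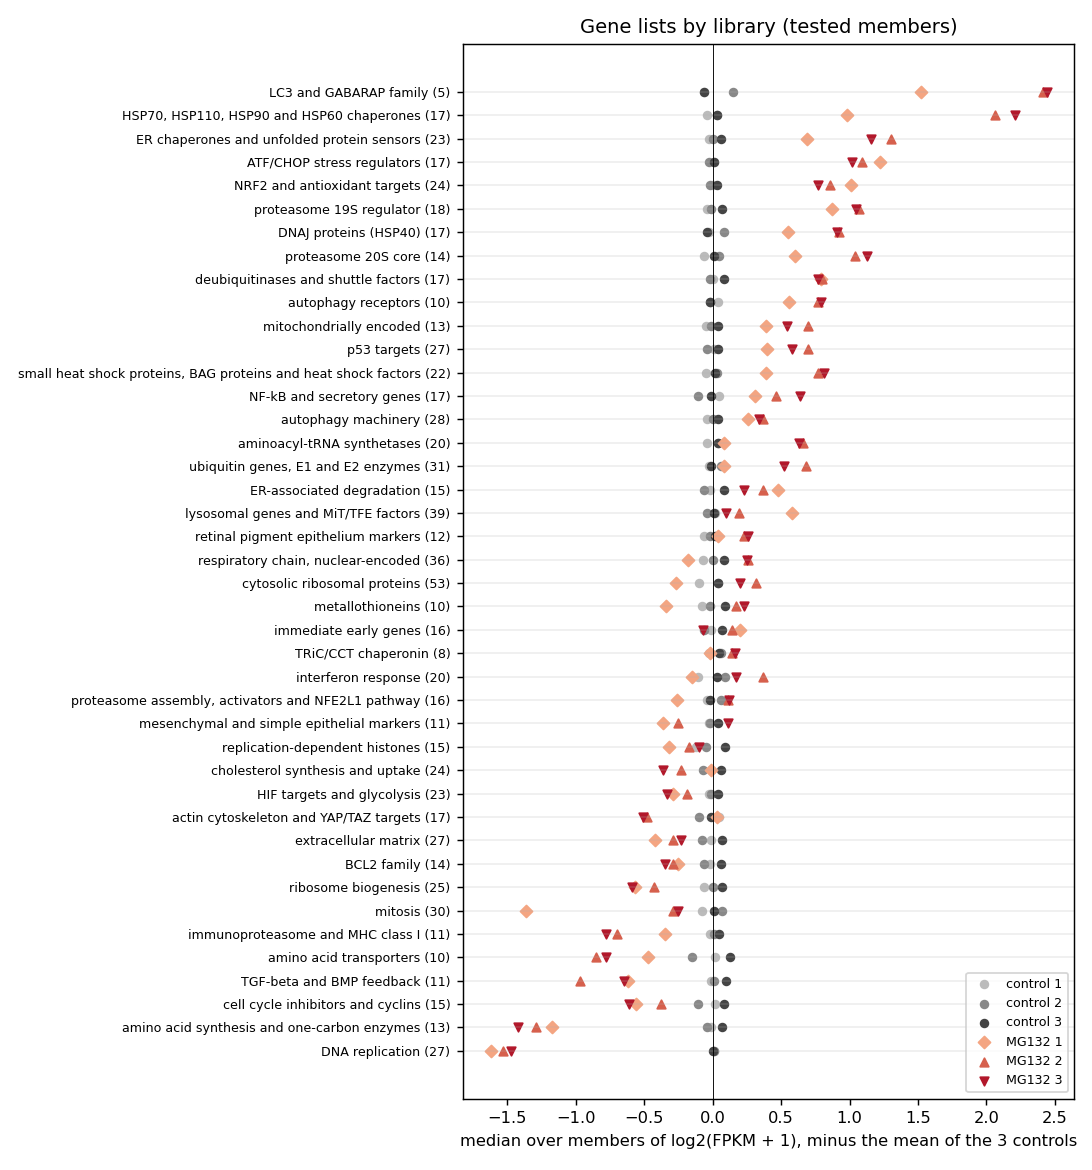
Median over the tested members of each gene list (number in brackets) of log2(FPKM + 1) minus the mean of the 3 controls, 1 point per library (controls as grey circles, MG132 1 as diamonds, MG132 2 and 3 as triangles). HSP70 and LC3 lists lie far to the right, DNA replication far to the left, and mitosis shows MG132 1 (-1.36) apart from MG132 2 and 3 (-0.29 and -0.25).

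Several rows at the ends of the ranking belonged to none of these lists. TUBB4A, a beta-tubulin of neurons, was at 0.17, 0.58 and 0.43 FPKM in the controls and 48.9, 33.2 and 28.6 FPKM after MG132 (log2 difference 4.74, SE 0.28, adjusted p = 1.87e-05). CLU (clusterin), a secreted chaperone, was at 75.5, 63.9 and 79.6 FPKM and 1027, 1570.1 and 1270.1 FPKM (log2 difference 4.11, SE 0.16, adjusted p = 3.2e-06). Both were far above every control. The highest difference of the ranking was in the ribosomal pseudogene RPL41P1 (2.41, 3.2 and 9.63 FPKM and 177, 3641 and 2724 FPKM, log2 difference 7.82, SE 2.19, adjusted p = 0.0422). RPL41P1 was uneven between treated libraries, and reads of its parent gene may be counted there. It was not called without MG132 2, MG132 3, control 1, control 2 or control 3 (adjusted p = 0.149, 0.144, 0.117, 0.101 and 0.0822, within a range of 0.0024 to 0.389 over its alternatives). Of the 10 lowest rows, SNORA73, AC084125.1 and RP4-800G7.1 were listed at 0 in MG132 2 and 3. Rows at 0 had a median length of 106 and 105 bases in those libraries, and of 80, 71 and 104 bases in controls 1, 2 and 3. Control 3 nonetheless held the highest values of these 3 rows (666, 133 and 81.2 FPKM). The part of transcript length in these differences was not tested. NT5DC4, at -3.98, was also highest in control 3 (61.4, 45.6 and 149 FPKM in the controls and 17.3, 1.41 and 1.49 FPKM after MG132). SNORA73 has 7 tested rows, of which 1 was called. None of the 4 was called without MG132 2 or without MG132 3. SNORA73 then had adjusted p = 0.0832 and 0.0834, AC084125.1 0.112 and 0.112, RP4-800G7.1 0.131 and 0.131 and NT5DC4 0.0736 and 0.0735. They were also lost without control 3 (0.0643, 0.0822, 0.0822 and 0.0694 in the same order), and all but SNORA73 without control 1 (0.0793, 0.0724 and 0.0524), with RP4-800G7.1 lost as well without control 2 (0.0592).

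MG132 was also set directly against the other drugs, at the exposure times given above. Against reversine 2000 rows were called (6.51%), 918 higher in MG132 (2.99%) and 1082 lower (3.52%). Against BafA1 3334 were called (10.9%), 1379 higher (4.49%) and 1955 lower (6.37%). These splits also depended on scaling: under the GC and length correction 107 rows were higher and 786 lower against reversine (12% upward), and 289 higher and 2201 lower against BafA1 (11.6% upward). The median over the 25349 rows tested under that correction was -0.395 against reversine and -0.542 against BafA1. Over all 30712 rows without it the medians were 0.008 and -0.046. The part of the smaller set of rows in this shift was not tested. Of the 2192 rows higher than control, 695 (31.7%) were also higher than both other drugs, and of the 2357 lower, 785 (33.3%) were also lower than both. All 3 contrasts share the MG132 libraries. Heat shock genes were in this class: HSPA1A was at 22.7 ± 7.54 FPKM in control, 15.1 ± 2.13 in reversine, 23.3 ± 5.5 in BafA1 and 1220 ± 206 in MG132 (mean and SD, n = 3), a log2 difference of 6.24 (adjusted p = 8.32e-06) from reversine and 5.66 (adjusted p = 4.27e-06) from BafA1. HSPA6 differed by 4.81 (adjusted p = 8.76e-06) and 5.19 (adjusted p = 3.82e-06), and HSPB8, which was at 41 ± 3.98 FPKM in reversine and 298 ± 44.2 in MG132, by 2.82 (adjusted p = 2.03e-05) and 4.28 (adjusted p = 3.59e-06). These genes were higher in MG132 than in either other drug.

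Proteasome subunits stood apart in the same way. In MG132 7 of 14 core subunits were higher than in reversine and 10 higher than in BafA1, and of the 18 regulator subunits 15 and 15, none being lower in either contrast. The core counts were 4 against reversine without MG132 2 or MG132 3, and 4 against BafA1 without MG132 3 or BafA1 1. PSMD6 differed by 1.73 (adjusted p = 0.000109) and 1.90 (adjusted p = 4.26e-05), and PSMC4 by 1.70 (adjusted p = 0.000338) and 1.85 (adjusted p = 0.000124). HSPA5 and HMOX1 were higher than in reversine by 2.91 (adjusted p = 2.03e-05) and 2.13 (adjusted p = 0.00023), and DDIT3 by 2.40 (adjusted p = 2.92e-05). SQSTM1 and GABARAPL1 were higher than in reversine by 1.98 (adjusted p = 0.000444) and 2.15 (adjusted p = 0.000127), and higher than in BafA1 by 2.84 (adjusted p = 4.23e-05) and 3.40 (adjusted p = 6.92e-06). With MG132 and reversine alone SQSTM1 was just outside the threshold (adjusted p = 0.0505, within a range of 7.53e-06 to 0.0505). For ATF3 no difference from reversine passed the test (0.15 with adjusted p = 0.636). GDF15 stood at 10.6 ± 3.67 FPKM in reversine and 5.61 ± 0.656 in MG132 (-0.76 with adjusted p = 0.0917), and passed without MG132 1 (adjusted p = 0.0343) or reversine 1 (adjusted p = 0.00561), with a range of 0.000285 to 0.264 over its alternatives.

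As a list, the 27 replication genes were near their level in reversine (median -0.05, 6 lower in MG132 and 1 higher). Of the 30 mitotic genes none was lower than in reversine and 1 was higher (median 0.45). Without MG132 1, 10 mitotic genes were higher and 2 lower, in a setting that called 8250 of all 30712 rows higher and 8851 lower. Against BafA1 15 replication and 14 mitotic genes were lower and none higher (medians -0.99 and -0.76). Over the 19692 rows with at least 5 FPKM in 3 libraries the median was -0.532 against reversine and -0.698 against BafA1. Among single genes, MCM2 and MCM3 were lower in MG132 than in reversine (-0.98 with adjusted p = 0.00763 and -1.06 with adjusted p = 0.000475, as log2 differences). Neither was called in a fit of MG132 and reversine alone (adjusted p = 0.21 and 0.109, the highest over their alternatives, with 4.79e-05 and 2e-05 the lowest). RRM2, PRC1, FOXM1 and PLK1 were not called against reversine (-0.05 with adjusted p = 0.757, 0.05 with adjusted p = 0.748, 0.21 with adjusted p = 0.218 and -0.38 with adjusted p = 0.273), although PLK1 was called without MG132 1 (adjusted p = 0.0385, with a range of 0.0008 to 1 over its alternatives). All 4 were lower in MG132 than in BafA1 (-1.88 with adjusted p = 3.18e-05, -1.57 with adjusted p = 7.26e-05, -1.40 with adjusted p = 0.000151 and -2.31 with adjusted p = 0.000626). THBS1, TGM2, PLAT and ID1 were lower than in both. Their log2 differences were -4.25 (adjusted p = 0.00174), -4.88 (adjusted p = 7.89e-05), -5.34 (adjusted p = 2.92e-05) and -2.77 (adjusted p = 6.97e-05) against reversine and -4.28 (adjusted p = 0.00101), -4.85 (adjusted p = 5.32e-05), -4.49 (adjusted p = 4.2e-05) and -3.77 (adjusted p = 8.81e-06) against BafA1. THBS1 was not called against reversine with those 2 groups alone (adjusted p = 0.0589, within a range of 6.13e-06 to 0.0589). In the cholesterol and HIF lists, 19 of 24 and 17 of 23 members were lower in MG132 than in BafA1 (medians -1.65 and -1.42). Against control the medians of these 2 lists were -0.20 and -0.22, beside -0.211 over all rows with at least 5 FPKM in 3 libraries. CA9, a hypoxia-induced carbonic anhydrase, was at 4.09 ± 0.708 FPKM in control, 51.4 ± 9.46 in BafA1 and 2.03 ± 0.694 in MG132. It differed from BafA1 (-4.13 with adjusted p = 3.68e-05) and was not called against control (-0.77 with adjusted p = 0.0887). ANGPTL4, a secreted lipase inhibitor, was lower than in reversine (-3.95 with adjusted p = 4.26e-05). Its levels were 3.02 ± 0.668 FPKM in control, 21.2 ± 4.49 in reversine and 0.42 ± 0.131 in MG132. MT1P3, a metallothionein pseudogene row listed at 0 in MG132 2 and 3, was the lowest against BafA1 (-5.37 with adjusted p = 0.0382), and was not called without MG132 2 (adjusted p = 0.148), MG132 3 (0.146), BafA1 1 (0.0871), BafA1 2 (0.112) or BafA1 3 (0.113), within a range of 2.94e-05 to 0.81. Without MG132 1, 17101 rows were called against reversine and 18445 against BafA1, and without the other libraries of the compared groups 965 to 2656 and 1855 to 2494 were.

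Markers of other cell types gave 1 call. Of the tested blood cell, endothelial and neuronal markers (5, 3 and 5 genes) only SNAP25, a synaptic gene, was called (2.93, 3.88 and 3.76 FPKM in the controls and 1.39, 1.73 and 1.6 FPKM after MG132; -0.81 with adjusted p = 0.0178, not called without control 2 or control 3 with adjusted p = 0.0718 and 0.054, within a range of 0.00246 to 0.125 over its alternatives). The summed levels of all listed markers in controls and after MG132 were 109 to 136 and 74.8 to 142 FPKM for blood cells, 4.87 to 5.61 and 6.13 to 6.54 FPKM for endothelium and 83.4 to 752 and 156 to 654 FPKM for neurons. Most of the blood sum was CD68, a lysosomal protein, and most of the neuronal sum TUBB3, a tubulin chosen after its values were seen (-0.36). CD68 and PTPRC of the blood list were at -0.52 (adjusted p = 0.286) and 0.89 (adjusted p = 0.103) (called without MG132 1, at -0.89 with adjusted p = 0.0243 and 1.31 with adjusted p = 0.0037), and PECAM1 and VWF of the endothelial list at 0.20 (adjusted p = 0.336) and 0.19 (adjusted p = 0.175). CD3E, LYZ, KDR, TEK and STMN2 were at 0.93 FPKM or less in all 12 libraries. Among the 12 tested retinal pigment epithelium markers 1, MERTK, was called (0.70 with adjusted p = 0.0148), and not without MG132 3 or control 1 (adjusted p = 0.0551 and 0.0729, within a range of 0.000908 to 0.518 over its alternatives). In bulk RNA, fewer cells of a kind and less RNA per cell cannot be told apart.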

How the data were processed

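Poly(A)-selected RNA of 12 libraries was sequenced, and the deposited table holds 1 FPKM value per gene and library, made by the authors with RSEM 1.2.6 and Bowtie 1.0.0, per the submitters' processing notes, which name hg19 and GRCh37. The header names no unit; FPKM is inferred from library totals that differ. Values at exactly 0 can be failed estimates of short transcripts.

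From these, log2(FPKM + 1) of the 30712 rows with at least 1 FPKM in 3 libraries was fitted with limma 3.58.1 (trended variance, R 4.3.3) in 1 model of 4 groups, with 8 residual degrees of freedom and Benjamini-Hochberg adjustment. The script was tested on simulated data. Groups came from the labels; replicate numbers follow accession order and pair nothing. Alternatives changed the pseudocount, filter, scaling, weights, GC and length correction (25349 rows with a GC value, 82.5%), the libraries and, chosen after seeing the data, the minimum length (300 bases). Promoters are RefSeq windows on GRCh38.p14.

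Members and gene lists were chosen with earlier results of these data known, and some genes of the lists are not reported here and are in no list count. Named genes are the 10 highest and lowest called rows without overlap and with a group mean of at least 2 FPKM, up to 4 called members of smallest adjusted p per list (2 members of highest control level where none was called), any member of 13 core lists, and the 5 highest and lowest rows against the other drugs; other genes are named as chosen afterwards.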

Additional observations from a re-analysis of the deposited data

How the results depend on the processing

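Of the 235 genes named in the text, 188 were called against control, 132 of them under all 16 alternatives in which they could be tested, and none changed direction with a call. The largest losses of calls were 37 under the GC and length correction, 31 when the 4 libraries whose values decline with GC were left out and 24 with the 2 groups alone. Against control 4549 rows were called, 2751 with the 2 groups alone, 2179 under the GC and length correction, 2576 without the 4 libraries, 20925 with array weights (which weighted MG132 1 at 0.109) and 6914 among the 17916 rows of 300 bases or more, a setting chosen after seeing the data. With 1 library left out the count ran from 2435 to 13046. Against reversine the 2000 calls became 256, 893, 945, 21636 and 4475 in the same order, and 3496 with a term for the 4 libraries, with a leave-one-out range of 965 to 17101. Against BafA1 the 3334 calls became 1413 with the 2 groups alone, 1753 without the 4 libraries, 21678 with array weights and 5146 with the term, with a leave-one-out range of 1855 to 18445. Leaving out samples or groups leaves fewer degrees of freedom, and the GC correction fewer rows; the cause of the other shifts was not tested. The pseudocount of 0.1, the absence of a filter, the minimum of 5 FPKM and median-ratio scaling kept all 3 counts within 1.5 times.

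List medians changed sign under at least 1 alternative in 13 of the 45 lists, most often for interferon genes (7), metallothioneins (6), the TRiC chaperonin (4) and the nuclear respiratory chain (4), and also for the immunoproteasome list (2), retinal pigment epithelium (2) and blood cell markers (2). None did so under median-ratio scaling, which moved the median of all rows from 0.04 to 0.07. Counts of called members fell by over 1.5 times in 19 lists for higher and 22 for lower calls under the GC and length correction, and in 15 and 10 with the 2 groups alone. Without MG132 1 they rose by over 1.5 times in 22 and 15 lists and fell in none. No paired analysis was possible because the labels give the libraries no replicate numbers. The table holds no read counts, so no counting error can be attached to a value.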

Other observations

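Rows listed at exactly 0 were short, and the length below which they appear differed between libraries. The median length of rows at 0 was 80, 71 and 104 bases in the controls and 69, 106 and 105 bases in MG132 1, 2 and 3, and the number of such rows was 4240, 2119 and 9118 in the controls and 1875, 10150 and 9689 after MG132. Control 3 was therefore nearer to MG132 2 and 3 than to the other controls in this respect.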
